A study of Mus musculus with 12 samples.

Results

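The clustered protocadherins are cell-surface adhesion proteins whose genes lie side by side on mouse chromosome 18. The members described here are the protein-coding genes on that chromosome whose symbol in the GENCODE M21 annotation of GRCm38 starts with Pcdha, Pcdhb or Pcdhg, which gave 57 of 21853 protein-coding genes, with 14 in the alpha, 22 in the beta and 21 in the gamma family. The rule uses name and place and no measured value. Pcdhgb8, which this annotation lists as a polymorphic pseudogene, is not a member and is described separately. The symbol Pcdha11 is carried by 2 genes, called here the upstream and the downstream Pcdha11.

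Each alpha and gamma gene has a long first exon of its own that encodes the extracellular cadherin repeats, the membrane-spanning segment and part of the cytoplasmic tail, and this exon is spliced to constant exons that all genes of the family share. Each beta gene is a single coding unit without shared exons. In neurons, each cell uses a small and largely random choice of the alternate promoters, which gives it a surface identity for self-avoidance, whereas the C-type genes Pcdhac1, Pcdhac2, Pcdhgc3, Pcdhgc4 and Pcdhgc5 are used more uniformly. CTCF and cohesin join the chosen promoters to distant enhancers, DNA methylation marks silent promoters, and the methyltransferase SETDB1 with H3K9me3 has been tied to silencing of the cluster in neurons. The genes are best known from the nervous system, not from gut epithelium.

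Chromatin was prepared from crypts, the proliferating pockets of the small-intestinal epithelium, and from villi, its differentiated projections, of mice whose strain, sex and age are not given in the labels. Villi were scraped off the opened intestine and crypts were released afterwards with EDTA, so neither fraction was sorted. The study concerns proteolytic cleavage of the H3 tail in villi, and the antibodies recognise residues of that tail. With signal scaled by added Drosophila chromatin, the paper reports much weaker H3K4me1, H3K4me3 and H3K9me3 in villi and ascribes this to cleavage. It reports that H3K27me3 was kept at repressed promoters. The peaks used below were called without this scaling, and the part of cleavage in their numbers, widths and scores was not tested. Of the 12 libraries, the peak lists of 8 were compared, 1 library for each compartment of H3K4me3 (the mark of active or poised promoters), H3K4me1 (found at enhancers and promoter flanks), H3K27me3 (the Polycomb mark of repressed genes) and H3K9me3 (the mark of heterochromatin).

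The values are the positions of peaks that the authors called with MACS2 on each library at a p-value of 1e-10, and a member was counted as marked when a peak overlapped its first exon by at least 1 bp. Read numbers are not part of the lists, so the depth is unknown, and as each group is a single library there is no replicate check, no test and no p-value. A missing peak says only that none was called at the depth of that library. The lists hold 16489 and 16977 H3K4me3 peaks, 54642 and 55341 H3K4me1 peaks, 7611 and 13797 H3K27me3 peaks, and 2126 and 2089 H3K9me3 peaks in crypts and villi respectively. The H3K9me2 lists hold 6 and 3 regions, none of them in the cluster or within 200 kb of it. As a check of the fractions, 6 of 6 epithelial marker genes had H3K4me3 within 1 kb of their start site in both compartments, and 0 of 5 enteric neuron and 0 of 4 enteric glia markers had it in either. Of the 4 blood cell markers, 0 had H3K4me3 in crypts and 3 in villi (Cd3e, Cd8a and Ptprc), and of the 5 mesenchymal markers 0 had it in crypts and 1, Col1a1, in villi, which are genes of cells other than the epithelium. H3K4me1 lay within 1 kb of the start site of 1 of the 5 neuronal markers in crypts (Snap25) and 3 in villi (Snap25, Tubb3 and Uchl1), of 1 of the 4 glial markers in both (S100b) and of 3 of the 5 mesenchymal markers in both, and of 0 of the 4 blood cell markers in either. Their part in the differences between crypts and villi given below was not tested.

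The members span 911.69 kb, chr18:36930184-37841873 of GRCm38 (mm10), and all lie on the forward strand. The alpha genes take up 257.478 kb at the upstream end, the beta genes 259.542 kb in the middle and the gamma genes 180.081 kb at the downstream end. Their first exons are unusually long, from 2346 to 8695 bp with a median of 2611 bp, against a median of 225 bp over all protein-coding genes. A long exon can be met by a peak more easily than a short one, so counts are set beside those of the 460 other genes whose first exon has 2000 bp or more.

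Along the cluster the marks were unevenly placed. Of the 57 members, 22 had a peak of any of the 4 marks over the first exon in crypts or villi, and 35 had none. This is 38.6% of the members, against 64.9% of all protein-coding genes and 65.4% of the other genes with a long first exon. The 22 comprised 15 of the 21 gamma genes, 4 of the 14 alpha genes and 3 of the 22 beta genes. Inside the beta interval not a single H3K4me3, H3K4me1 or H3K27me3 peak was called in either compartment. The longest stretch without an H3K4me1 peak was 498.146 kb in crypts and 498.016 kb in villi, from Pcdhac2 to the non-member gene Taf7, and it held the first exons of all 22 beta genes. For H3K4me3 the longest stretch without a peak was 712.925 kb in crypts, which held the first exons of 36 members, that is every alpha and beta gene, and 499.031 kb in villi.

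**Figure D1:**
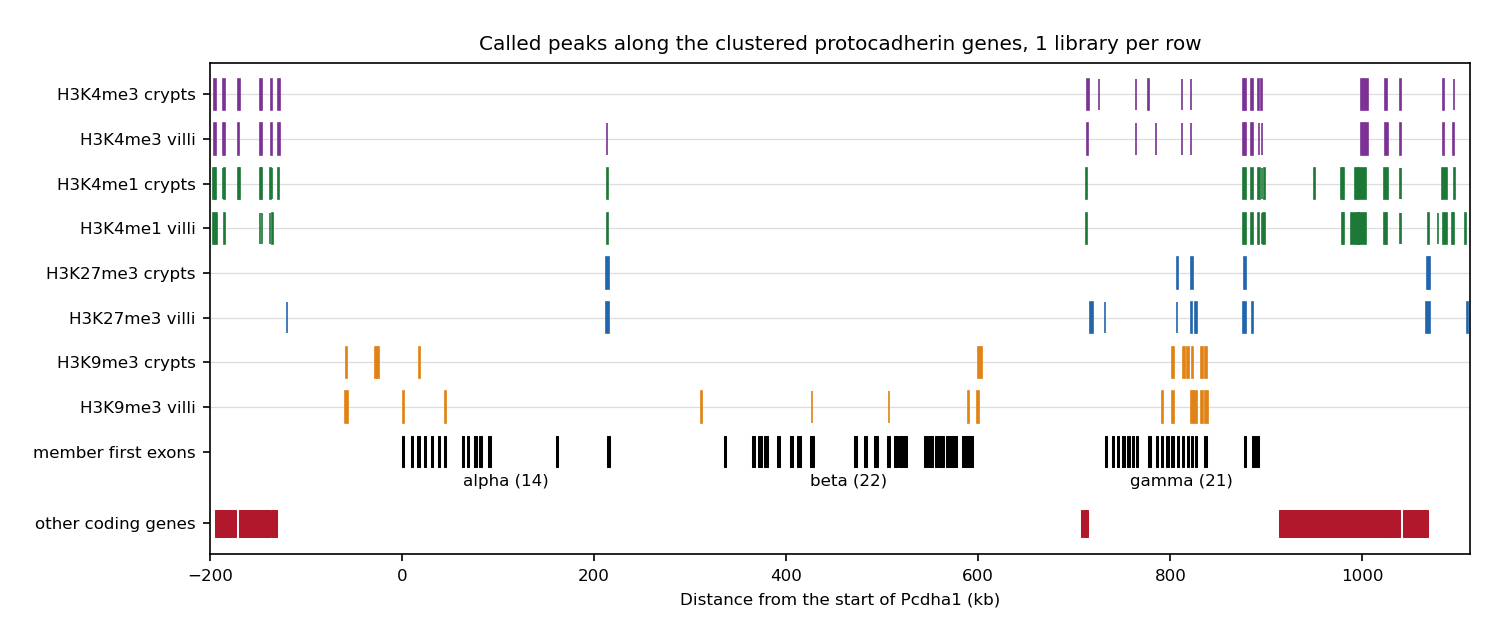
Peaks of 4 marks along the clustered protocadherin genes in crypts and villi, 1 library per row. The horizontal axis is the distance in kb from the start of Pcdha1, the black bars are the first exons of the 14 alpha, 22 beta and 21 gamma members, and the red bars are other coding genes, without 3 readthrough models that span the cluster. Peaks gather over the gamma genes, and the beta genes have none but 3 H3K9me3 peaks in villi.

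The cluster differed from its surroundings in this respect. The nearest genes on either side, Zmat2, 130518 bp upstream, and Diaph1, a formin gene 1728 bp downstream, both had H3K4me3 over the first exon in crypts and in villi. Within 200 kb, 7 of 8 upstream and 4 of 5 downstream coding genes had it, in both compartments. Of the other coding genes inside the cluster, Taf7, which encodes a subunit of the general transcription factor TFIID, had an H3K4me3 peak in both (1883 bp in crypts, 1951 bp in villi), and Slc25a2, a mitochondrial carrier gene, had no peak of any mark. The 3 further coding entries inside the cluster (Gm42416, Gm37013 and Gm37388) are readthrough models whose first exons lie within those of alpha genes. Promoter marks were thus called on both sides of the cluster and at Taf7 within it, while most members had none.

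H3K4me3 lay over the first exon of 7 members in crypts and 8 in villi, against 53.2% and 53.1% of all protein-coding genes, and 45.9% and 47.2% of the other genes with a long first exon. Pcdhga5, Pcdhgb6, Pcdhgb7, Pcdhgc3, Pcdhgc4 and Pcdhgc5 had it in both compartments, Pcdhga6 in crypts alone, and Pcdhac2 and Pcdhga7 in villi alone. The peaks seen in 1 compartment scored low in their lists, as did some of the shared ones. With scores ranked within each list from 0 (lowest) to 100 (highest), the peak at Pcdhga6 ranked at 7.77, that at Pcdhac2 at 2.69 and that at Pcdhga7 at 1.84. The shared peaks at Pcdhgb7 ranked at 11.5 in crypts and 5.12 in villi, and those at Pcdhga5 at 14.5 and 9.01. With the upper 50% of scores alone, 0 members kept H3K4me3 in crypts and 1 in villi. The peaks at Pcdhga6 (479 bp) and Pcdhga7 (372 bp) covered 18.3% and 13.7% of the first exon.

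Among the gamma genes, the C-type genes near the constant exons had the widest H3K4me3. Pcdhgc3 had a peak over its start site in crypts (chr18:37805939-37807610, 1672 bp, rank 47.2) and in villi (chr18:37805898-37807571, 1674 bp, rank 57.1). It also had a separate peak at the end of its first exon (939 bp in crypts, 876 bp in villi). BC037039, an antisense transcript, starts at position 37807922 between these peaks, 312 and 192 bp from them in crypts and 351 and 337 bp in villi, so that H3K4me3 of the gene and of the antisense transcript cannot be told apart.

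Pcdhgc4 had H3K4me3 over its start site at chr18:37814299-37816246 in crypts (1948 bp) and chr18:37814605-37816127 in villi (1523 bp). At Pcdhgc5, the last member, the peak did not reach the start site but began 2401 bp after it in crypts and 2519 bp after it in villi, at the downstream end of the first exon. Pcdhgc5 is thus counted as marked although its promoter carried no called H3K4me3.

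The other gamma peaks were narrow and close to the start site. At Pcdhgb6 the H3K4me3 peak ran from -167 to 521 bp relative to the start site in crypts, against -128 to 407 bp in villi, with ranks of 29.1 and 30.4. Pcdhgb7 had a peak of 468 bp in crypts, which measured 335 bp in villi. Pcdhga5 had one of 589 bp in crypts, which measured 538 bp in villi. The median width of H3K4me3 peaks was 1584 bp in crypts and 1498 bp in villi over the genome, so these peaks were narrow for their lists. No alternate gamma gene had H3K4me1 over its first exon in either compartment.

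H3K4me1 lay over the first exon of the same 4 members in crypts and villi, namely Pcdhac2, Pcdhgc3, Pcdhgc4 and Pcdhgc5, against 20.8% and 22.1% of all genes and 48.3% and 49.8% of the other genes with a long first exon. All 4 are C-type genes, and the remaining C-type gene, Pcdhac1, had no peak of any mark over its first exon. The H3K4me1 peak covered the whole first exon of Pcdhgc3 in both compartments, and was 3300 bp wide in crypts against 3080 bp in villi. The peak at Pcdhgc4 ranked at 74.7 in crypts and 97.3 in villi. At Pcdhgc5 the H3K4me1 peak (1357 bp in crypts, rank 82.7, and 1250 bp in villi, rank 93.6) began 2282 and 2203 bp after the start site and covered at most 16.0% of the first exon, so that 3 members had H3K4me1 within 1 kb of the start site. At Pcdhac2 the peak had nearly the same width in both, 1108 and 1104 bp, but ranked at 0.109 in crypts and 62.4 in villi.

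Further H3K4me3 and H3K4me1 peaks lay in the part of the gamma interval shared by all gamma genes. In crypts an H3K4me3 peak of 797 bp overlapped the first constant exon, chr18:37825021-37825079, while the villi peak of 597 bp began just after that exon. H3K4me1 peaks lay beside it in both compartments, with a further H3K4me1 peak downstream, at chr18:37827286-37828308 in crypts and chr18:37827038-37828288 in villi. The alpha constant exons had no peak of any mark. In the 77.276 kb between the alpha and the beta genes, where the enhancer HS5-1 is known to lie, no H3K4me1, H3K4me3 or H3K27me3 peak was called in either compartment.

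H3K27me3 lay over the first exon of 4 of the 57 members in crypts and 7 in villi, against 9.7% and 12% of all genes and 24.6% and 28% of the other genes with a long first exon. The share of members was thus below that of all genes in crypts and near it in villi. Pcdhac2, Pcdhga9, Pcdhgb7 and Pcdhgc3 had it in both compartments, and Pcdhga1, Pcdhga11 and Pcdhgc4 in villi alone. The villi list holds more H3K27me3 peaks than the crypts list, and 44.4% of its peaks genome-wide overlapped a crypts peak, whereas 90.4% of the crypts peaks overlapped a villi peak. With at least 50% of the first exon covered, 3 members had H3K27me3 in crypts and 3 in villi. With the upper 50% of scores alone, 1 had it in crypts and 3 in villi. In the cluster 4 of 4 crypts peaks and 4 of 8 villi peaks had a counterpart, which follows the pattern of the lists as a whole.

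The widest H3K27me3 peak over a member was at Pcdhac2, the last alpha gene, in both compartments. Its peak measured 2589 bp in crypts (chr18:37142902-37145490, rank 49.7) and 3440 bp in villi (chr18:37142093-37145532, rank 96.2), and covered the start site in both. Pcdhgc3 had an H3K27me3 peak that was 2181 bp wide in crypts against 2894 bp in villi, over 84.9% and 92.7% of its first exon, with ranks of 66.7 and 80.4, so that in crypts it scored above the peak at Pcdhac2. At Pcdhga11 a villi peak of 2764 bp covered 93.8% of the first exon, and the crypts list had no H3K27me3 there. The remaining villi-only peaks, at Pcdhga1 with 593 bp and Pcdhgc4 with 1074 bp, were shorter.

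Pcdhga9 and Pcdhgb7 went the other way in width. The Pcdhga9 peak measured 1028 bp in crypts and 393 bp in villi, and the Pcdhgb7 peak 1791 bp in crypts and 901 bp in villi. At Pcdhga9 the rank was 38.9 in crypts and 0.243 in villi, where the peak lay at the calling threshold. At Pcdhgb7 it was 10.7 in crypts and 49.7 in villi, opposite to the change in width. Of the 4 H3K27me3 peaks shared between the compartments, 2 were wider in crypts and 2 in villi.

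H3K4me3 and H3K27me3 met over the same first exon at 2 of the 57 members in crypts, Pcdhgb7 and Pcdhgc3. In villi they met at 4, Pcdhac2, Pcdhgb7, Pcdhgc3 and Pcdhgc4. The shares were 3.52% and 4.26% of all genes, and 12% and 14.6% of the other genes with a long first exon. The share of members was near that of all genes in crypts and above it in villi. It was below that of the other genes with a long first exon in both. With the upper 50% of scores alone the counts were 0 and 1, and with at least 50% of the first exon covered 1 and 1. At Pcdhgc3 the start-site H3K4me3 peak overlapped the H3K27me3 peak by 1055 bp in crypts and 1674 bp in villi. At Pcdhac2 the 575 bp of H3K4me3 in villi lay wholly inside the H3K27me3 peak. At Pcdhgb7 the peaks barely met, with 55 bp in common in crypts and a gap of 57 bp in villi. Whether such marks sat on the same chromosomes or in different cells of the fraction cannot be told from peak lists of mixed cells.

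**Figure D2:**
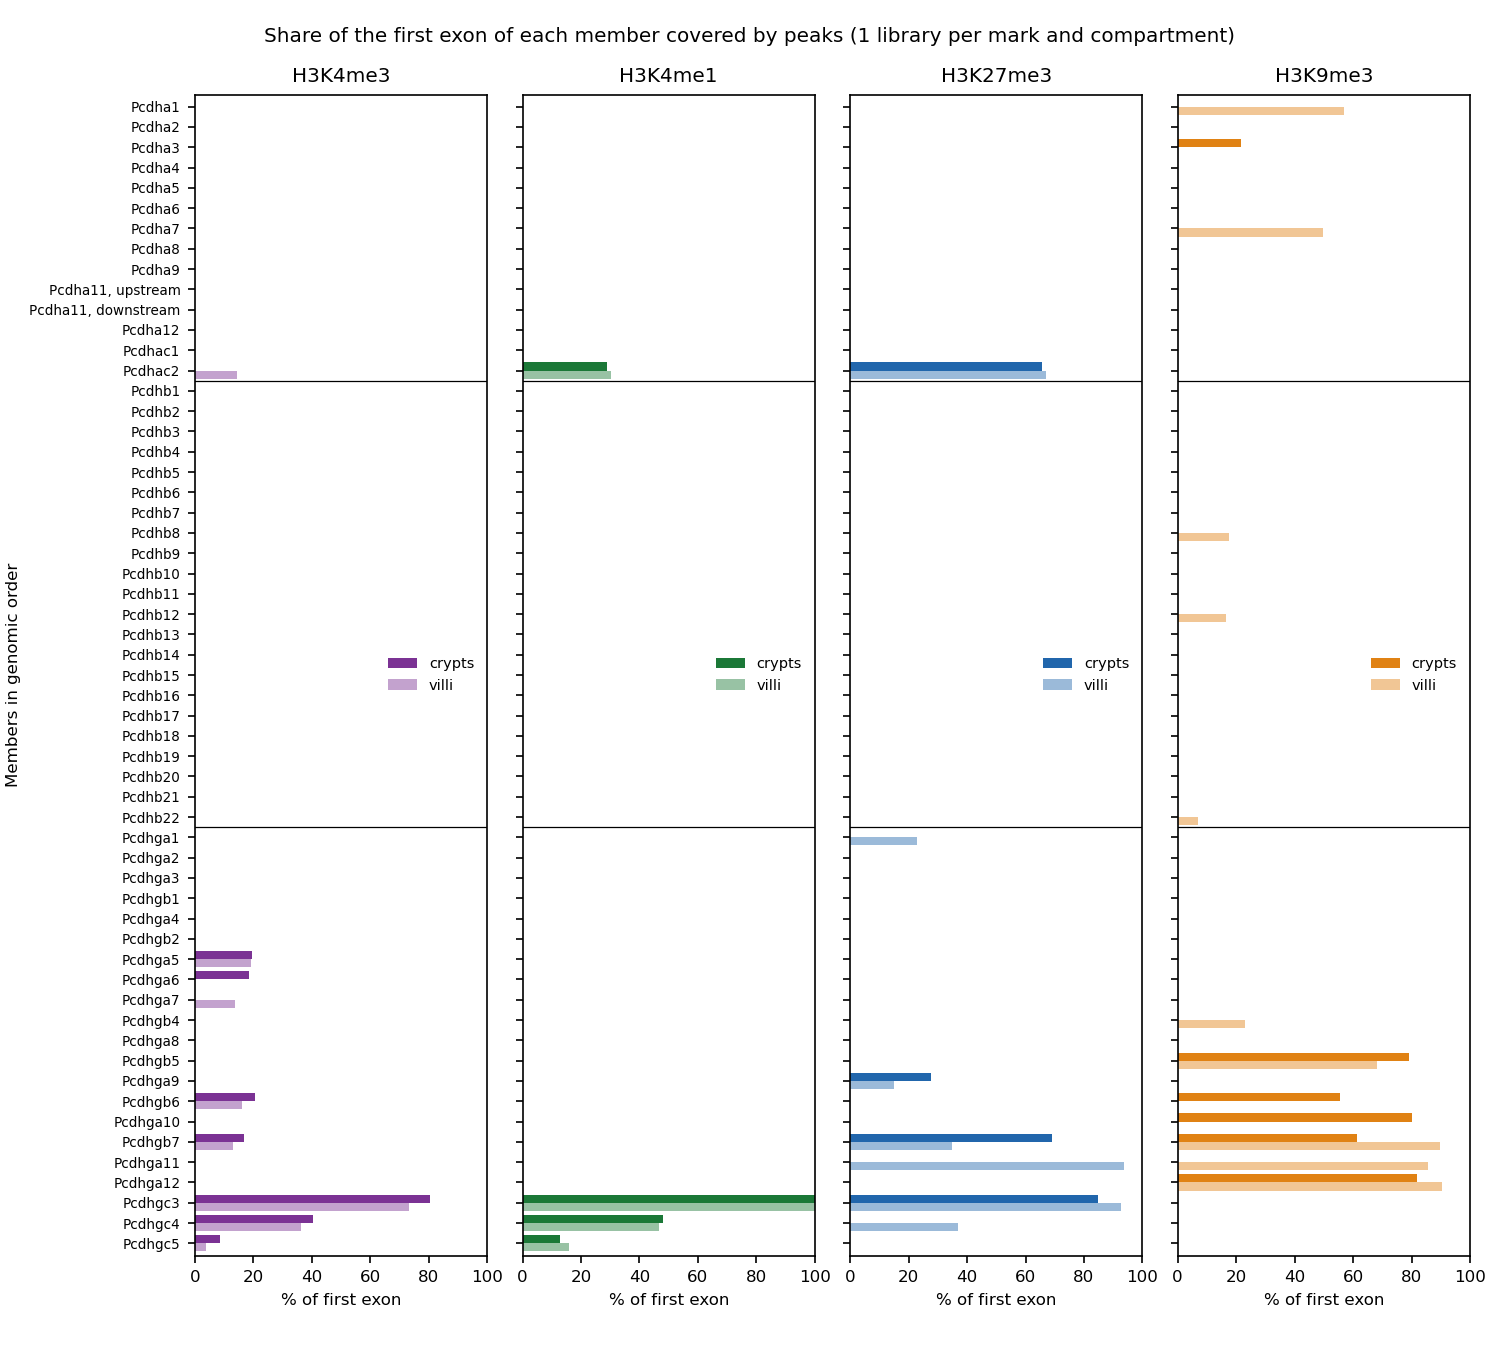
Share of each member's first exon covered by peaks, in percent, for 4 marks in crypts (full colour) and villi (pale), 1 library each; members are in genomic order and the horizontal lines part the alpha, beta and gamma families. H3K9me3 covers more than 80% of the first exon of Pcdhga12 in both compartments, and H3K4me1 covers 100% of that of Pcdhgc3.

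H3K9me3, the mark of heterochromatin, lay within several long first exons, of which 5 of 6 in crypts and 5 of 10 in villi belonged to gamma genes. It met the first exon of 6 members in crypts and 10 in villi, against 0.197% and 0.215% of all protein-coding genes. With at least 50% of the first exon covered the counts were 5 and 5, and within 1 kb of the start site 4 and 5, so that the difference between the compartments depended on how overlap was counted. With the upper 50% of scores alone they were 3 and 6, and the difference remained. Members were thus 6 of the 43 genes with H3K9me3 over the first exon in crypts and 10 of the 47 in villi. Among the other genes with a long first exon, 7 of 460 had it in crypts and 5 in villi, or 1.52% and 1.09%. No test was made of these differences. H3K9me3 peaks covered 1.77% of the cluster in crypts and 2.13% in villi, against 0.0930% and 0.0796% of the genome, and 6.75% and 6.80% of the gamma interval.

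Pcdhgb5, Pcdhgb7 and Pcdhga12 had H3K9me3 in both compartments. Pcdha3, Pcdhgb6 and Pcdhga10 had it in crypts alone, and Pcdha1, Pcdha7, Pcdhb8, Pcdhb12, Pcdhb22, Pcdhgb4 and Pcdhga11 in villi alone. In all, 7 gamma, 3 alpha and 3 beta genes carried the mark in crypts or villi. Over the genome 39.4% of the crypts and 41.6% of the villi H3K9me3 peaks had a counterpart, and in the cluster 5 of 9 and 5 of 13 did.

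The gamma peaks lay close together. From the first gamma member with H3K9me3 in crypts or villi, Pcdhgb4, to the last, Pcdhga12, over 48.172 kb, 7 of 9 members had it, the exceptions being Pcdhga8 and Pcdhga9. The stretch was drawn from these peaks, so the lack of the mark at the gamma members on either side follows from its definition. Pcdhgb8 lies inside this stretch and had H3K9me3 over its first exon in both compartments, at chr18:37762167-37764028 in crypts and chr18:37762305-37764075 in villi, and no other mark. The first exons of the members make up 30.6% of the gamma interval, yet held 78.5% of its H3K9me3 peak length in crypts and 78.4% in villi, or 93.9% and 92.8% with that of Pcdhgb8. This was not particular to H3K9me3. The member first exons held 93.9% and 90.7% of the H3K27me3 peak length of the interval. For H3K4me3 the shares were 62.6% and 63.9%, and for H3K4me1 47.1% and 50.6%.

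The widest of these peaks was at Pcdhga12, the last alternate gamma gene. It measured 2428 bp in crypts (chr18:37765800-37768227, rank 93.4) and 3144 bp in villi (chr18:37765865-37769008, rank 90.6), and covered 82.0% and 90.4% of the first exon. At Pcdhgb5 the peak measured 2309 bp in crypts and 1875 bp in villi, with ranks of 61.7 and 65.3. At Pcdhgb7 it measured 1591 bp in crypts (rank 23.5) and 2598 bp in villi (rank 93.9). The genes with H3K9me3 in both compartments thus had broad peaks whose widths changed in either direction.

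Peaks seen in 1 compartment varied in size within the gamma and alpha families, and those of the beta genes were all short. The gamma peaks at Pcdhga10 in crypts (2098 bp), Pcdhgb6 in crypts (1876 bp) and Pcdhga11 in villi (2262 bp) were about as wide as the shared peaks, and that at Pcdhgb4 in villi was 589 bp. The beta peaks in villi were short, with 592 bp at Pcdhb8, 507 bp at Pcdhb12 and 469 bp at Pcdhb22, and ranked at 39.0, 6.27 and 39.0. The alpha peaks measured 533 bp at Pcdha3 in crypts, 1362 bp at Pcdha1 in villi and 1236 bp at Pcdha7 in villi.

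None of the H3K9me3 peaks over members reached the start site of that member. They began 127 to 1758 bp after it in crypts (median 688.5 bp) and 150 to 1775 bp after it in villi (median 1069 bp), and ended 2224 to 3018 bp after it in crypts and 2030 to 3428 bp after it in villi. The position 2 kb after the start site lay within H3K9me3 at all 6 marked members in crypts and all 10 in villi. Among the 37 other genes with H3K9me3 over the first exon, the peak covered the start site at 30 in crypts and 27 in villi. In villi 1 of the 37, also among the 27, is the readthrough model Gm37388, whose start site lies within the peak over Pcdha7. Most of these have short first exons, and of those with a first exon of 2000 bp or more the start site was covered at 3 of 7 in crypts and 3 of 5 in villi. A peak that left the start site free was thus also found at other genes with a long first exon, 4 in crypts and 2 in villi.

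H3K4me3 lay closer to the start site of most marked members. The largest number of members covered was 6 in crypts, from 25 to 425 bp after the start site, and 7 in villi, from 25 to 325 bp after it. H3K27me3 reached its highest counts of 4 and 7 members between these marks, at 400 to 700 bp (crypts) and 400 to 575 bp (villi) after the start site.

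**Figure D3:**
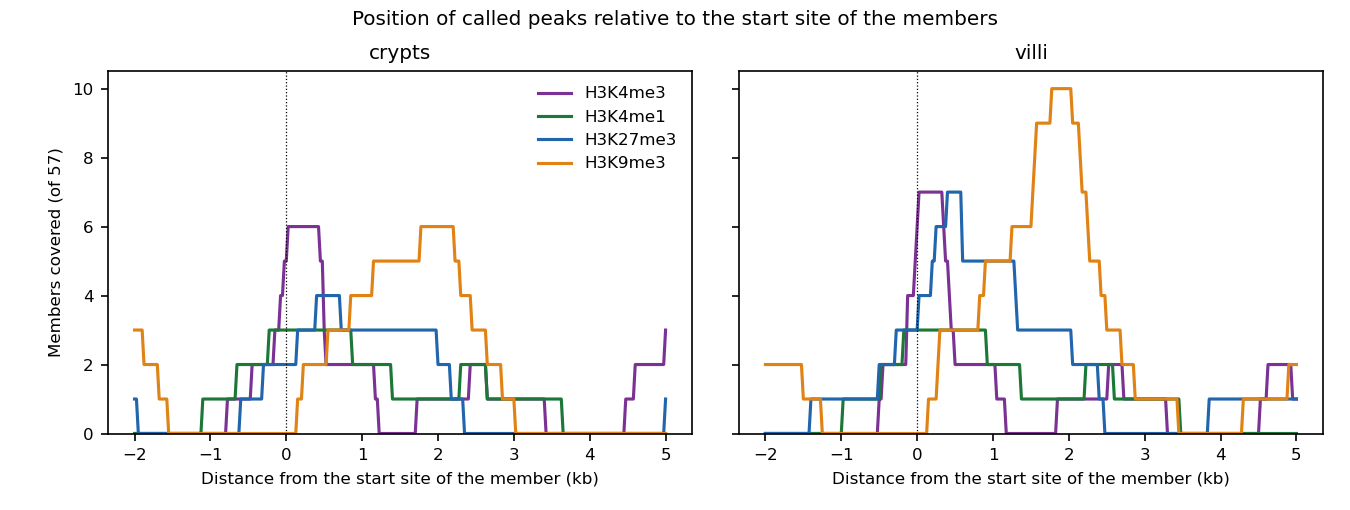
Number of the 57 members covered by a peak at each distance from the start site, in kb, for 4 marks in crypts and villi, 1 library each. H3K4me3 is highest just after the start site and H3K9me3 about 2 kb into the gene, with 6 members in crypts and 10 in villi; counts beyond the first exon include peaks of the next gene.

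Pcdhgb6 and Pcdhgb7 carried several of these marks within a single exon. At Pcdhgb6 in crypts the H3K4me3 peak at the start site was followed after 621 bp by the H3K9me3 peak, chr18:37743237-37745112. In villi the H3K4me3 peak was present and no H3K9me3 peak was called. At Pcdhgb7 in crypts H3K4me3 at chr18:37751569-37752036 was followed by H3K27me3 at chr18:37751982-37753772 and H3K9me3 at chr18:37752441-37754031. In villi the same 3 marks were called, with H3K4me3 at chr18:37751603-37751937, H3K27me3 at chr18:37751995-37752895 and H3K9me3 at chr18:37751870-37754467. There the order differed, since the H3K9me3 peak began before the H3K27me3 peak, contained it whole and overlapped the H3K4me3 peak by 68 bp. Pcdhgb7 was the only member with these 3 marks over its first exon, and it had them in both compartments.

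The overlap of H3K27me3 and H3K9me3 was also seen at Pcdhga11. There the villi H3K9me3 peak, 2262 bp wide, lay wholly inside the villi H3K27me3 peak, and the crypts lists had neither. At Pcdhgb7 the 2 marks shared 1332 bp in crypts and 901 bp in villi.

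Outside the first exons H3K9me3 lay at few places. A peak between the beta and the gamma genes was called in both compartments, at chr18:37529484-37531170 in crypts and chr18:37529023-37531059 in villi, and sequence soft-masked as repeats made up 82.4% and 69.0% of its bases. In crypts there was a further peak nearby, chr18:37532463-37534190, and in villi a peak between the alpha and beta genes, chr18:37241396-37242375. Upstream of Pcdha1, a peak at chr18:36871297-36873318 in crypts and chr18:36871173-36873498 in villi was shared, and 2 more were called in crypts. The peaks over gamma first exons differed from the shared one between the families in base composition. Soft-masked sequence made up at most 9.91% of their bases, and their CpG observed over expected ratio ranged from 0.598 to 0.844, against 0.0527 and 0.0921 at the peak between beta and gamma. The other peaks named in this paragraph or called upstream had less masked sequence than that peak, 23.3% to 51.9%. Their ratios ranged from 0.0636 to 0.327.

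The sequence of the first exons also differed between the families. The CpG observed over expected ratio, which is near 1 where CpG has not been lost to methylation and deamination, had a median of 0.665 in alpha, 0.386 in beta and 0.533 in gamma first exons, and 0.653 over all genes. The beta genes, which had the fewest peaks, ranged from 0.286 to 0.490. Among the gamma genes the 7 with H3K9me3 in crypts or villi had ratios from 0.609 to 0.780 (median 0.712), and the 14 without it from 0.345 to 0.721 (median 0.466). The ranges overlapped, since Pcdhgb2, with 0.665, and Pcdhgc3, with 0.721, had no H3K9me3. In the alpha family, which had the highest median ratio, 3 of 14 genes had H3K9me3 in crypts or villi. These are descriptions of neighbouring, related genes, and no test was made.

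**Figure D4:**
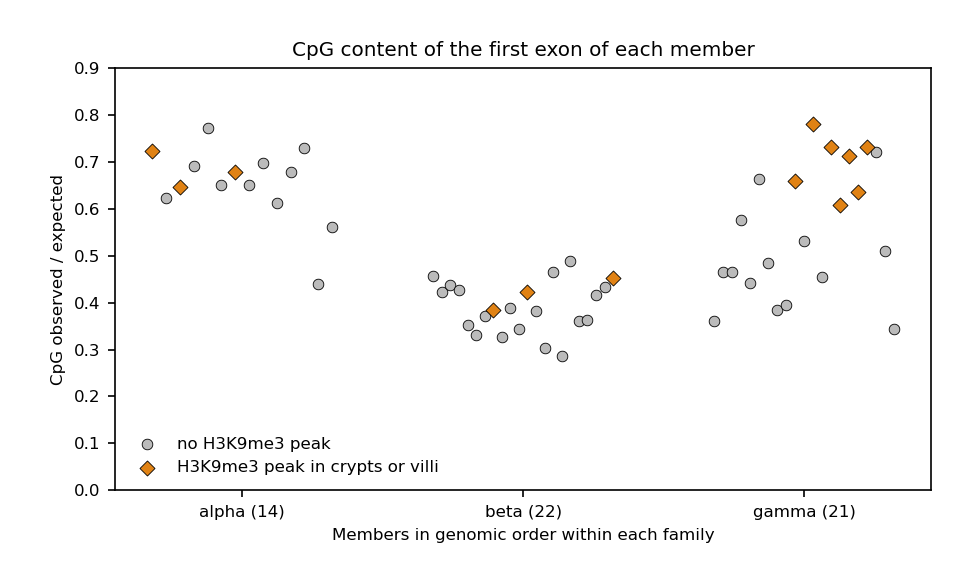
CpG observed over expected ratio of the first exon of each member, in genomic order within the alpha (14), beta (22) and gamma (21) families; orange diamonds are members with an H3K9me3 peak over the first exon in crypts or villi, grey circles those without. The marked gamma genes lie between 0.609 and 0.780, and the beta genes below 0.5.

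Related first exons share stretches of sequence, and the authors kept 1 alignment per read pair, so reads from such stretches could be placed at another member. Of all 50-base windows of a first exon, the share found again elsewhere in the cluster had a median of 14.8% in alpha, 3.48% in beta and 0.601% in gamma genes. The share was higher in members with H3K9me3 in crypts or villi than in those without, with medians of 10.4% and 3.48% over all members and of 2.67% and 0.459% over the gamma genes. Of the marked genes, Pcdha7 had 23.6%, and Pcdhb12 had the highest share of the beta genes. In the 7 marked gamma genes the share ranged from 0 to 11.9%, and was 0 at Pcdhga11 and Pcdhga12. Other members went the other way. The highest share of all, 26.6%, was at Pcdha6, where no H3K9me3 peak was called. The highest gamma shares, 17.9% at Pcdhgb2 and 16.8% at Pcdhgb1, were also at genes without the mark. Pcdhb22, which had the mark, had 1.83%, below the beta median. These shares are of whole first exons and not of the peaks, and the part of shared sequence in the calls was not tested.

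Over whole gene bodies more members met a peak, since all alpha genes run to the same constant exons and all gamma genes likewise, so that each peak downstream is counted for every gene that starts before it. H3K4me3 met the body of 21 members in crypts and 35 in villi (59.7% and 60.1% of all genes), H3K4me1 35 and 35 (63% and 62.4%), H3K27me3 33 and 34 (14.5% and 18.5%), and H3K9me3 21 and 28 (2.87% and 2.35%). The rise from 21 to 35 members in H3K4me3 came from the single villi peak at Pcdhac2, which lies in the body of all 14 alpha genes. These counts are therefore not independent between members. With at least 10% of the body covered, the counts were 2 and 1 for H3K4me3, 6 and 4 for H3K4me1, 0 and 0 for H3K27me3, and 3 and 7 for H3K9me3.

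The 12 non-clustered protocadherins do not lie within this cluster, and 8 of them have a first exon of 2000 bp or more, while in the other 4 it measures 16 to 420 bp. H3K4me3 lay over the first exon of 4 in crypts and 5 in villi, H3K4me1 over 5 and 7, H3K27me3 over 6 and 7, and H3K9me3 over 0 in both. Over all protein-coding genes the shares were 53.2% and 53.1%, 20.8% and 22.1%, 9.7% and 12%, and 0.197% and 0.215% in this order. Over the 460 other genes with a long first exon they were 45.9% and 47.2%, 48.3% and 49.8%, 24.6% and 28%, and 1.52% and 1.09%. Pcdh8, Pcdh17 and Pcdh19 had H3K4me3 and H3K27me3 over the first exon in both compartments. Of the clustered members, 6 and 10 of 57 had H3K9me3, and with 12 genes in the comparison no difference in share was tested.

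Genes whose products act on the cluster had marks of active promoters. All 18 listed genes, among them Ctcf, the cohesin genes Rad21, Smc1a, Smc3 and Stag1, Setdb1, Trim28, Smchd1, Dnmt1, Dnmt3a, Dnmt3b and the Polycomb genes Ezh2, Eed and Suz12, had H3K4me3 within 1 kb of the start site in both compartments, against 54.6% and 54.8% of all genes. None of the 18 had H3K27me3 or H3K9me3 there (11.9% and 14.7%, and 0.252% and 0.243% of all genes). The kinase genes Ptk2, Ptk2b and Ret, whose products bind clustered protocadherins, had H3K4me3 in both compartments, and Ret, which encodes the GDNF receptor kinase of enteric neurons, also had H3K27me3 in both.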

How the data were processed

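ChIP-Rx libraries of crypts and villi were aligned by the authors to mm10 and dm6 with bowtie 1.1.2, with 1 alignment kept per pair. Duplicates were removed with samblaster, and peaks were called with MACS2 2.1.1 at a p-value of 1e-10. The Drosophila spike-in does not enter the calls. Chromatin and antibody amounts and the type of bead differ between the labels and the methods. The deposited lists have no header. Each peak carries a value of 10 or more, read here as the −log10 p-value that the authors' caller gives, although a q-value is possible. Ranks and the score filter use it within a library alone. A rank that differs between compartments thus gives a place in each list and not an amount of the mark. The 2 inputs have no list and were not analysed here, and the methods do not name H3K9me2 among the marks called.

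Overlaps with GENCODE M21 (GRCm38) were computed with Python 3.11.15, NumPy 2.4.6 and pandas 2.3.3, and figures drawn with Matplotlib 3.10.9. The scripts were tested on simulated data. The first exon and start site were those of the transcript with the longest coding sequence. CpG ratios and soft-masked repeats were read from the reference sequence of GRCm38. No test was made between single libraries. Any member could be named. Values are given for those with a peak over the first exon, the C-type genes and the members whose peaks differed between compartments, with the nearest other genes. The members and gene lists were chosen with earlier results of these data known. The alternatives were the upper 50% of scores in a list, peaks less than 1 kb apart merged, a minimum share of the first exon (50%) or body (10%), any annotated first exon, 1 kb around the start site, the first exon with 1 kb after it, and, added after seeing the data, Pcdhgb8 as a further gene.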

Additional observations from a re-analysis of the deposited data

How the results depend on the processing

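With 1 library per group, no replicate could be left out and no difference has an error, and depth limits all absences of a peak. No paired analysis was possible because each group holds 1 library and the results come from no test. The cause of the changes below was not tested beyond the construction of each alternative, which removes peaks or asks for more overlap. With the top 50% of each list by score, members marked over the first exon in crypts and villi numbered 0 and 1 for H3K4me3, 1 and 3 for H3K27me3, and 3 and 6 for H3K9me3. Marked in both compartments were then 0 for H3K4me3 and 1 for H3K27me3, and H3K4me3 met H3K27me3 at 0 and 1. Body counts were 0 and 19 for H3K4me3, 21 for H3K4me1 in crypts and 19 for H3K27me3 in crypts. The covered share of the cluster was 0.207% and 0.398% for H3K4me3, 0.891% and 0.985% for H3K4me1, 0.239% and 1.40% for H3K27me3, and 1.30% and 1.89% for H3K9me3. With at least 50% of the first exon covered, the counts were 1 and 1 for H3K4me3, 1 and 1 for H3K4me1, 3 and 3 for H3K27me3, and 5 and 5 for H3K9me3. Marked in both were then 1 for H3K4me3, 1 for H3K4me1 and 2 for H3K27me3, and H3K4me3 met H3K27me3 at 1 and 1. Within 1 kb of the start site, H3K9me3 met 4 members in crypts and 5 in villi. With at least 10% of the body covered, the counts were 2 and 1 for H3K4me3, 6 and 4 for H3K4me1, 0 and 0 for H3K27me3, and 3 and 7 for H3K9me3. With the first exon and 1 kb after it in place of the body, they were 7 and 8, 4 and 4, 4 and 7, and 6 and 10 in the same order. Merging peaks less than 1 kb apart gave a covered share of 1.26% and 1.15% for H3K4me3. Of the main counts and shares, 74 values under alternatives stayed within 1.5 times the reported count, or for a covered share within its binomial interval over bases, and 52 did not. That interval treats neighbouring bases of a peak as independent. It served as a cutoff alone and measures no spread between libraries. Neither merging, any annotated first exon nor adding Pcdhgb8 moved a first exon count beyond 1.5 times.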

Other observations

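H3K27me3 and H3K9me3 were also looked up at the olfactory receptors, a larger tandem family with many silent genes, and at the zinc finger genes Zfp700 to Zfp999. These comparison lists were chosen after results had been seen, so they support nothing. Of 1134 Olfr genes, 0 had H3K9me3 over the first exon in crypts and 0 in villi, 5 and 18 had H3K27me3, and 2 and 1 had H3K4me3. Their median first exon measured 945 bp. Of 128 Zfp genes, 3 had H3K9me3 over the first exon in crypts and 2 in villi. Beside the clustered protocadherins, the other genes with a first exon of 2000 bp or more and H3K9me3 over it included Celsr2 in crypts, which encodes an adhesion receptor with cadherin repeats, where the peak did not cover the start site.

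A crypts H3K4me3 peak of 456 bp without a counterpart in villi lay between the beta and gamma genes, 92 bp after the start site of the lincRNA 3222401L13Rik, and ranked at 7.77 in its list. A villi H3K27me3 peak of 3653 bp without a counterpart in crypts lay at chr18:37646230-37649882, between Taf7 and Pcdhga1, with a rank of 60.3.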
